A study of Mus musculus with 6 samples.

Results

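Small cell lung cancer is sorted into subtypes by which lineage transcription factor its cells use, and 9 genes of that scheme were followed here through the 6 libraries of a mouse tumour series. They are Neurod1, Insm1, Prox1, Nfib, Yap1, Wwtr1, Rest, Pou2f3 and Atoh1, named as subtype factors or as their partners and repressors, and each symbol matched 1 of the 56980 Ensembl gene identifiers of the deposited count table. The libraries came from messenger RNA of lung tumours labelled QKO, a name the labels do not spell out, taken about 4 months after virus was given. There were 3 tumour samples with the genotype label Control and 3 with the label Keap1 knockout. All 6 are titled QKO tumor, so the Control tumours are not wild-type lung. The count columns are headed QKO for the controls but KP for the knockouts, a difference the labels do not explain. Neither the way Keap1 was inactivated nor the number of animals is stated in the labels, so the p-values speak of the spread among these samples, which may be technical.

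Neuroendocrine small cell tumours depend on proneural basic helix-loop-helix factors such as NEUROD1 and on the zinc-finger factor INSM1, which switch on the secretory and neuronal genes of the pulmonary neuroendocrine cell. REST, a repressor that binds neuronal genes in non-neuronal cells, works against this program. Tumours without neuroendocrine features commonly carry the Hippo pathway coactivators YAP1 and TAZ, the latter encoded by Wwtr1, or the tuft cell factor POU2F3.

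Reads counted on genes ran from 18731515 to 23759892 per library. Keap1 RNA ranged from 58.7 to 78.4 CPM (read counts scaled to a common library total) among controls and from 67.5 to 93.0 CPM among knockouts, so its groups overlapped and its level does not separate the labels. The small cell label was set against 7 neuroendocrine markers, the granule, peptide and enzyme genes Chga, Chgb, Syp, Calca, Ddc and Uchl1 and the adhesion gene Ncam1. Their summed level was 5215 CPM in control 3 and between 56.3 and 237 CPM in the other 5 libraries, so the label's defining genes were high in 1 library of 6. Control 1 held 6866 CPM of 5 squamous and basal markers, against at most 61.9 CPM elsewhere. In control 2, 7 fibroblast markers summed to 34330 CPM, against 397 to 5042 CPM elsewhere. Most of that sum was Col1a1 (20424 CPM) and Col1a2 (12074 CPM). Lum, Pdgfra and Pdgfrb were also highest in control 2. Col3a1 and Dcn were highest in control 3, at 2291 and 238 CPM against 998 and 57.1 CPM in control 2. Control 3 thus stood apart from its group in the genes described here, and results that rest on it are given with and without it. In bulk tissue, fewer cells of a type and less RNA per cell cannot be told apart.

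The 9 factors fell into 3 patterns, and none of them changed between genotypes by the test. Neurod1, Insm1, Prox1 and Nfib were highest in control 3, Yap1, Wwtr1 and Rest were lowest in that same library, and Pou2f3 and Atoh1 were near 0 in all 6. Of the 9, 6 passed the filter on low counts, and edgeR's quasi-likelihood test called 0 of these 6 at a Benjamini-Hochberg adjusted p of 0.05. Over all 17901 genes tested it called 4.31%, 2.42% higher and 1.89% lower in the knockout. Unadjusted p-values were below 0.05 for 2, Insm1 and Prox1, against 30.7% of all genes. Limma voom called 0, with 0 unadjusted. DESeq2 called 0, with Nfib at an unadjusted p of 0.0353, but gave no p for Insm1, Prox1 and Neurod1, which it therefore could not call. Of the 21827 genes with an adjusted p by DESeq2, 19% were called. Knockouts lay below every control in 3 of the 6 (Insm1, Prox1 and Nfib), whereas 40.7% of genes tested had groups that did not overlap, and 19.1% had the knockouts below.

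**Figure D1:**
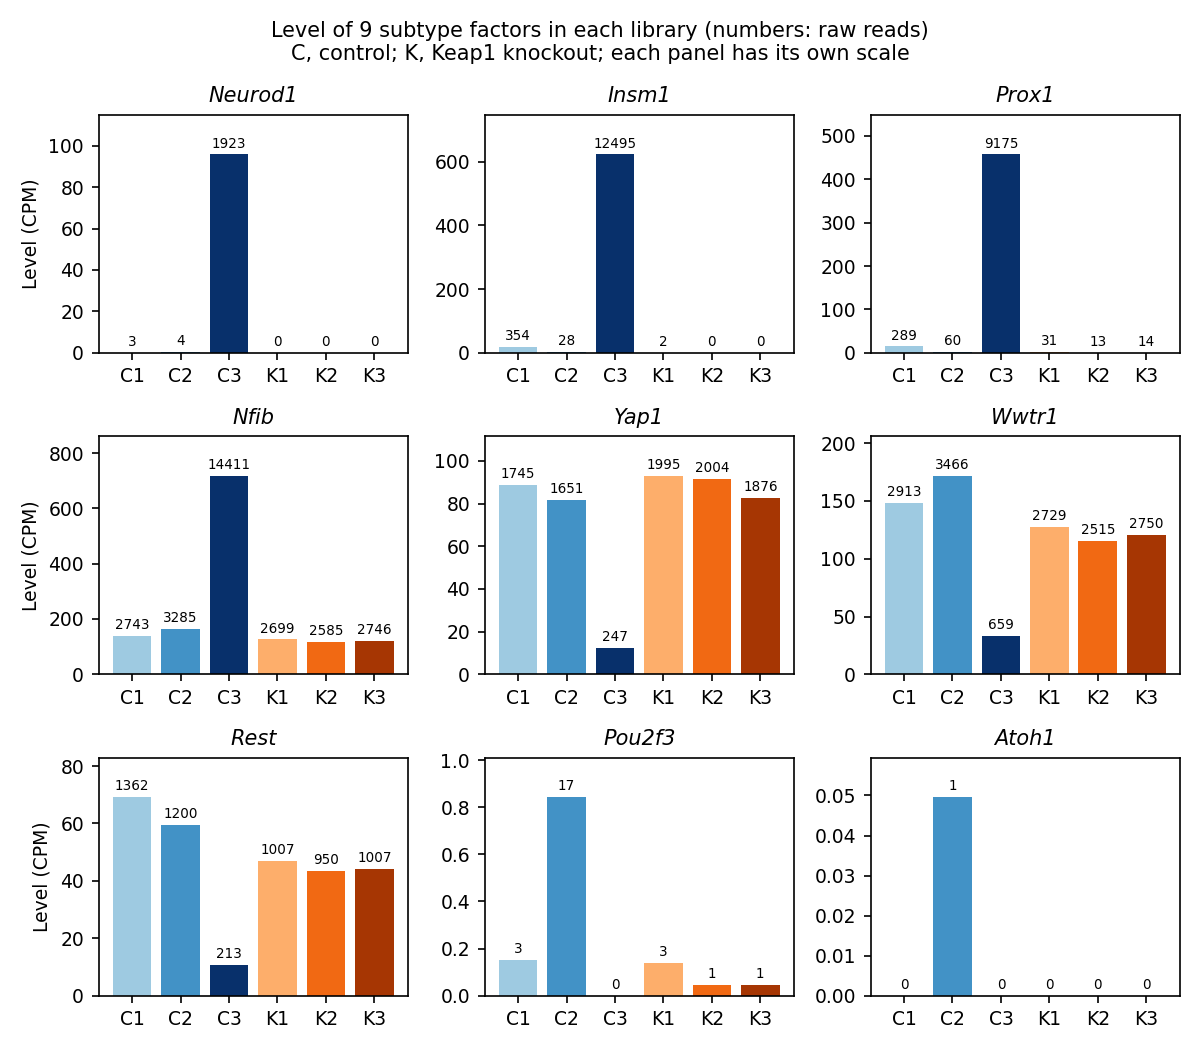
Level of each of the 9 factors in CPM (bars, linear axis from 0, a scale of its own in each panel) in controls 1 to 3 (C1 to C3, blue) and knockouts 1 to 3 (K1 to K3, orange), with the raw reads above each bar. Neurod1, Insm1, Prox1 and Nfib are tallest in control 3, Yap1, Wwtr1 and Rest are shortest there, and Pou2f3 and Atoh1 have at most 17 reads and 1 read.

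Neurod1 (ENSMUSG00000034701) encodes the proneural factor that names one neuroendocrine subtype. It had 3, 4 and 1923 reads in controls 1, 2 and 3 and 0 reads in each knockout, which is 0.152, 0.198 and 95.7 CPM in the controls. Control 3 held 99.6% of its summed CPM, and the filter, which asks for reads in several libraries, left it untested in the comparison. A count of 0 allows up to 0.140, 0.137 and 0.132 CPM in knockouts 1 to 3, taking 3 reads as the limit (counting error only), so the low levels of controls 1 and 2 lay only just above what the knockouts could hold unseen. Against 3 reads over the knockout group, the controls pooled were at least 708-fold higher (counting error only), a bound that rests on control 3. The groups did not overlap, and an exact two-sided permutation test of the CPM gave p = 0.1, the smallest that 3 against 3 allows. Without the filter edgeR gave Neurod1 an adjusted p of 0.280.

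Insm1 (ENSMUSG00000068154) encodes a zinc-finger factor found across neuroendocrine tissues. It had 354, 28 and 12495 reads in controls 1, 2 and 3 and 2, 0 and 0 in knockouts 1 to 3. Every control thus had more Insm1 reads than every knockout, and the controls themselves ran from 1.39 to 622 CPM, a 448-fold range, with a mean of 214 ± 354 CPM against 0.0311 ± 0.0538 CPM in the knockouts (SD, n = 3 each). The log2 fold change, knockout over control, was -12.52 ± 3.13 (SE) and edgeR's adjusted p 0.0712, a fitted value that depends on the prior count. By reads pooled over each group and divided by the pooled totals, controls were 7090-fold higher (95% counting interval 1962 to 58552). Without control 3 the ratio was 316 (interval 86.9 to 2621), the fitted log2 fold change was -8.06 ± 1.58, and the gene passed, with an adjusted p of 0.0321 by edgeR.

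Prox1 (ENSMUSG00000010175), a homeobox factor of lymphatic endothelium and of several endocrine and neural lineages, followed Insm1. It had 289, 60 and 9175 reads in controls 1, 2 and 3 and 31, 13 and 14 reads in the knockouts, that is 14.7, 2.97 and 457 CPM against 1.45, 0.595 and 0.615 CPM. The gap between the lowest control and the highest knockout was small beside the gap between control 3 and the other controls. The log2 fold change of Prox1 was -7.47 ± 2.14 (SE; edgeR adjusted p 0.0870). Without control 3 it was -3.31 ± 0.81 with an adjusted p of 0.0474, and controls 1 and 2 pooled held 9.96 times the knockout level (interval 7.53 to 13.4). Those 2 calls, of Insm1 and Prox1, stand against a background in which the comparison without control 3 called 17.2% of 18656 genes, 8.8% lower and 8.4% higher in the knockout.

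The sum of the lymphatic endothelium markers was lowest in the library with the most Prox1, but higher in controls 1 and 2 than in the knockouts, as Prox1 was. Single markers differed. Lyve1, Flt4 and Ccl21a were lowest in control 3, and Pdpn, Mmrn1 and Reln in a knockout. Ccl21a was 3.91 CPM in control 2 and 12.6, 18.2 and 6.33 CPM in knockouts 1 to 3. Lyve1, Flt4, Pdpn, Ccl21a, Mmrn1 and Reln summed to 34.0 CPM in control 3, where Prox1 was highest, and to 154 and 91.4 CPM in controls 1 and 2. In the knockouts they summed to between 44.2 and 71.9 CPM, and no marker of the list was at 0 in any library. The part of these cells in the Prox1 call without control 3 was not tested.

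Nfib (ENSMUSG00000008575) encodes a nuclear factor I protein whose gene is often amplified in mouse small cell tumours. Its 6 values were 139, 163 and 718 CPM in controls 1, 2 and 3 and 126, 118 and 121 CPM in knockouts 1 to 3. Unlike Insm1, Nfib was well expressed everywhere, and control 3 held 5.70 times the median of the other 5 libraries and 51.8% of the summed CPM. The log2 fold change was -1.48 ± 0.67 (SE; edgeR adjusted p 0.191), and without control 3 it was -0.31 ± 0.13, with an adjusted p of 0.149. The knockouts lay within 1.06-fold of one another, and group means were 340 ± 327 and 122 ± 3.83 CPM (SD, n = 3 each). Exact two-sided permutation tests of the CPM gave p = 0.1 for Insm1, Prox1 and Nfib, as for Neurod1.

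**Figure D2:**
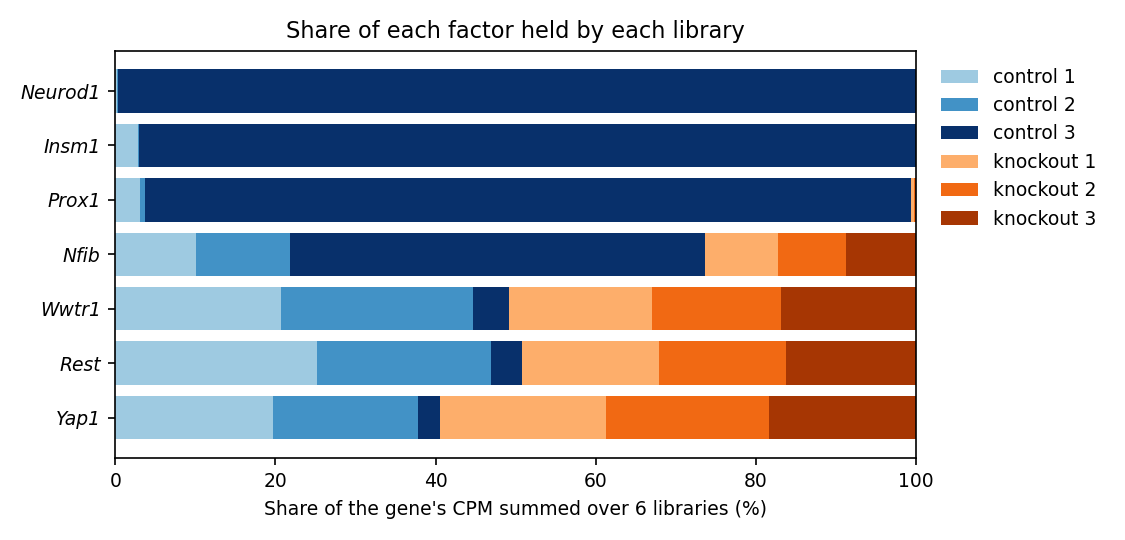
Share of each gene's CPM, summed over the 6 libraries, that each library holds (stacked bars, percent), for the 7 factors with at least 100 reads. Control 3 (dark blue) holds 99.6% of Neurod1, 97.0% of Insm1, 95.7% of Prox1 and 51.8% of Nfib, but 4.58% of Wwtr1, 3.87% of Rest and 2.73% of Yap1.

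The sequences just before the gene starts of Neurod1 and Prox1 are shown because these genes shared the control 3 pattern. Each run is the 250 bases before the start, from RefSeq on build GRCm38.p6, an earlier build than the mm39 used for the counts, and Neurod1 lies at chr2:79456637-79456886 and Prox1 (the upstream of its 2 listed starts) at chr1:190170828-190171077, both on the minus strand. Capitals mark E-boxes, CANNTG, the letters that basic helix-loop-helix proteins such as NEUROD1 bind.
Neurod1: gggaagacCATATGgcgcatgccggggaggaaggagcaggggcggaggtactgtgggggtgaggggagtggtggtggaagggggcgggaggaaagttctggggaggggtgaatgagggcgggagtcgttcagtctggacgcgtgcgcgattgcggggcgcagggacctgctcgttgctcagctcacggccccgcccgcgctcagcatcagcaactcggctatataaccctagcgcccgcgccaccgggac
Prox1: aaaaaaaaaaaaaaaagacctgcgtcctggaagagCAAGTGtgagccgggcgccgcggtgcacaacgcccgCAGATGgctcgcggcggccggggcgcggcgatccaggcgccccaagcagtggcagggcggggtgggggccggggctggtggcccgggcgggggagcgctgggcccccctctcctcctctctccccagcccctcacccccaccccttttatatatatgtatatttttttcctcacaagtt
Neurod1 had 1 match, CATATG, starting 242 bases before the gene start, and the Prox1 window shown had 2, CAAGTG at 215 and CAGATG at 179 bases. The window of the other Prox1 start, chr1:190169516-190169765, had 0. Searched on either strand, 66.2% of 32851 promoter windows of this length held an E-box, so its presence here is common. None of the 7 windows listed for the factors held TTCAGCACC, the left arm of the REST motif, which 0.301% of all windows held. That says only that those letters are not in these windows.

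Yap1 (ENSMUSG00000053110) encodes a coactivator that carries Hippo pathway output to the TEAD factors. Its level was 88.6, 81.8 and 12.3 CPM in the 3 controls and 93.0, 91.8 and 82.5 CPM in knockouts 1 to 3. Control 3 was the 1 low library, and controls 1 and 2 lay inside or next to the range of the knockouts. The control mean was 60.9 ± 42.2 CPM and the knockout mean 89.1 ± 5.77 CPM (SD, n = 3 each), for a log2 fold change of 0.55 ± 0.67 (SE; edgeR adjusted p 0.604), and without control 3 it was 0.07 ± 0.13.

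Wwtr1 (TAZ, ENSMUSG00000027803), the paralogue of Yap1, stood at 148, 172 and 32.8 CPM in the 3 controls and at 127, 115 and 121 CPM in knockouts 1 to 3. Controls 1 and 2 were above all knockouts and control 3 was below them. Group means were 117 ± 74.3 and 121 ± 6.05 CPM (SD, n = 3 each), and the log2 fold change was 0.04 ± 0.57 (SE; edgeR adjusted p 0.967). Without control 3 the direction turned, to -0.40 ± 0.13, with an adjusted p of 0.0925.

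Rest (ENSMUSG00000029249) was, like Wwtr1, above all knockouts in controls 1 and 2 and below them in control 3. Its levels were 69.1, 59.5 and 10.6 CPM in controls 1, 2 and 3 and 47.0, 43.5 and 44.3 CPM in knockouts 1 to 3. The median of the other 5 libraries was 4.43 times control 3, the library with the most Insm1 and Neurod1. Controls averaged 46.4 ± 31.4 CPM of Rest and knockouts 44.9 ± 1.82 CPM (SD, n = 3 each). Rest had a fold change of -0.05 ± 0.63 on the log2 scale (SE; edgeR adjusted p 0.969), and -0.52 ± 0.14 without control 3, with an adjusted p of 0.0564. Its direction turned without control 1 or control 2, to 0.37 and 0.19.

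**Figure D3:**
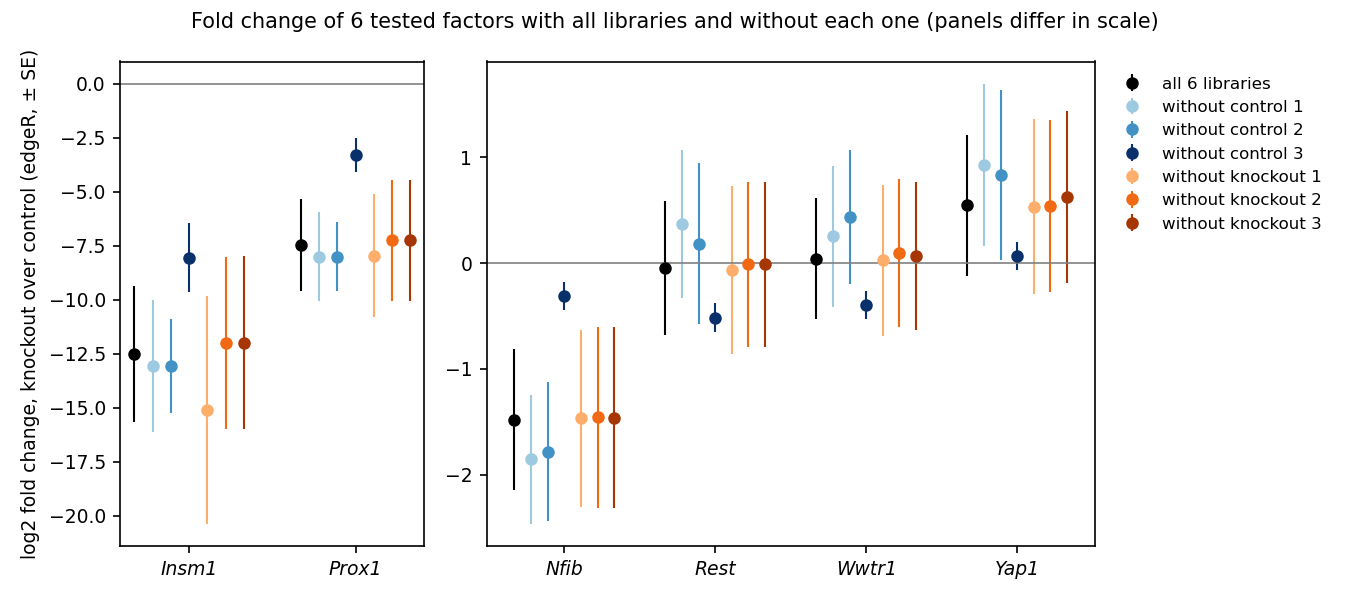
Log2 fold change, knockout over control, with its SE (points and bars, edgeR) for the 6 tested factors, with all libraries (black) and without each library in turn (colours). Insm1 and Prox1 stay below 0 in every setting shown, Nfib moves from -1.48 to -0.31 without control 3 (dark blue), and Rest and Wwtr1 lie on either side of 0.

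Yap1 and Wwtr1 each have the letters GGAATG, the TEAD-binding motif, within 250 bases of a listed start, and are shown because they were low in the same library. Yap1 lies at chr9:8004597-8004846 and Wwtr1 at chr3:57575877-57576126 (the downstream of its 2 listed starts), on the minus strand of GRCm38.p6, from RefSeq, with the motif in capitals.
Yap1: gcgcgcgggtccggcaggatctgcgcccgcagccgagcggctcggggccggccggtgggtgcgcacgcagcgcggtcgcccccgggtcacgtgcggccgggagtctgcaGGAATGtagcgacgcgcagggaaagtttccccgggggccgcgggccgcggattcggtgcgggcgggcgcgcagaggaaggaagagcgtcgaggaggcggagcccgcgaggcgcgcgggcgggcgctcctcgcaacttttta
Wwtr1: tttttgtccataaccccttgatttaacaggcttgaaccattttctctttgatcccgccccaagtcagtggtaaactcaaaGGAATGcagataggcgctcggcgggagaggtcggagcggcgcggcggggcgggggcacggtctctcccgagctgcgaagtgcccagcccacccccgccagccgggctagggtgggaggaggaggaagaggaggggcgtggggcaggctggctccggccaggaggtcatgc
The match starts 141 bases before the start of Yap1 and 170 before that of Wwtr1, and Yap1 also had an E-box, CACGTG, at 163 bases that does not overlap it. On either strand, 12.6% of the 32851 windows held GGAATG.

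Pou2f3 (ENSMUSG00000032015), the master factor of tuft cells, had 3, 17 and 0 reads in controls 1, 2 and 3 and 3, 1 and 1 reads in the knockouts. Control 2 was the highest at 0.842 CPM, and the groups overlapped. Pooled reads, 20 against 5, gave a ratio of 4.40 (95% counting interval 1.60 to 15.0), of which 17 reads were from control 2, and the exact two-sided permutation test of the CPM gave p = 0.6. Atoh1 (ENSMUSG00000073043), a proneural factor of sensory and intestinal lineages, had 1 read in control 2 and none in the other 5 libraries, where 0 reads allow up to 0.152 CPM in any library. Neither gene was tested in the comparison, and the exact permutation p of Atoh1 was 1.0.

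Control 3 was at least 3 times every other library in 3 of the 6 tested factors (Insm1, Prox1 and Nfib) and at most a factor of 1/3 of every other library in the other 3 (Yap1, Wwtr1 and Rest). Over all 17901 genes tested, 6.06% met the first condition and 6.93% the second, thresholds that were chosen after the values were seen. Among 18487 genes that were tested or had at least 100 reads, 4.04% had 80% or more of their summed CPM in control 3, as Neurod1, Insm1 and Prox1 did.

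The order of the factors within a tumour was read per length of exon, in CPM per kb. In control 3 Insm1 led at 201 CPM per kb, followed by Prox1 at 54.4, Nfib at 48.0 and Neurod1 at 35.1, with Wwtr1 at 6.87, Rest at 1.47 and Yap1 at 1.33. In the other 5 libraries Wwtr1 led, between 24.1 and 35.9 CPM per kb. Yap1, Nfib and Rest followed within 6.02 to 10.9 CPM per kb, in an order that differed between controls 1 and 2, and in the knockouts it was Yap1, then Nfib, then Rest each time. Insm1 in control 1, at 5.80 CPM per kb, was 0.606 of the Rest level there, against 137 times Rest in control 3 and at most 0.0544 in the remaining libraries. Yap1 was below Wwtr1 in all 6 libraries, at 0.193 to 0.411 of it, with the 3 knockouts (0.352 to 0.411) above the 3 controls (0.193 to 0.309). The ratio of Nfib to Yap1 also separated the groups, at 0.798 to 0.906 in the knockouts and 0.973 to 36.1 in the controls. How many gene pairs have ratios that do so was not counted.

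Likeness between genes was measured by how the summed CPM was shared among the 6 libraries, as the sum of absolute differences in share divided by a factor of 2, in percentage points. Insm1 and Prox1 differed by 1.22 points, Neurod1 and Insm1 by 2.67, and Neurod1 and Prox1 by 3.89. Wwtr1 and Rest differed by 4.58 points, Yap1 and Wwtr1 by 8.64 and Yap1 and Rest by 10.2. Nfib lay 43.9 points from Prox1 and 47.2 from Wwtr1, between these 2 sets. Genes nearest to Neurod1 among 16918 were Cer1 (0.104 points), Adgrb3 (0.116) and Bsx (0.177), nearest to Insm1 were Plppr4 (0.178), Glra2 (0.231) and F730016J06Rik (0.236), and among those nearest to Prox1 were Unc80 (0.189) and Sez6 (0.287). For Nfib they were Ccp110 (2.01), Spats1 (2.76) and Klc1 (2.97), for Yap1 Arhgap27 (2.34), Oas1a (2.37) and Myo1d (2.77), for Wwtr1 Cxcl16 (2.72), Stat6 (2.89) and Cdkn2b (3.12), and for Rest Ddx58 (2.18), Myo1c (2.18) and Vcl (2.30). A gene found in 1 library alone is close to any other such gene: 247 genes were within 5 points of Neurod1, 354 of Insm1 and 391 of Prox1, against 25 to 58 for the other 4.

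Relatives of Neurod1 and Insm1 were found mainly in control 3. Neurod4 and Neurod6, relatives of Neurod1, had 450 and 131 reads in control 3 and none elsewhere, and Insm2 had 56 reads in control 3 and 0 to 3 elsewhere. Of the 12 relatives, 7 were tested and edgeR called 0 (3 had an unadjusted p under 0.05, against 30.7% of all genes). The median log2 fold change was -0.58, beside -0.08 over all genes tested. Limma voom called 0. DESeq2 was fitted to all 12, but it can withhold an adjusted p, as it did for Insm1. It called 2, of which Pou2f2 was among the 7, where it called 19% of all genes. Nfix, a family member of Nfib, stood at 66.0, 153 and 317 CPM in controls 1, 2 and 3 and 84.0, 68.8 and 63.2 CPM in the knockouts. Nfic stood at 90.3, 229 and 176 CPM against 90.3, 81.1 and 75.6 CPM. Neither reached the threshold (edgeR adjusted p of 0.168 and 0.123), although Nfic passed without control 1, at 0.0433. Without control 1 edgeR called 377 of 18805 genes lower in the knockout. Pou2f2, of the family of Pou2f3, came to -3.18 ± 1.03 (log2 fold change ± SE) and Pou2f1 to -0.58 ± 0.22, for which edgeR's adjusted p was 0.109 and 0.145.

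Of 19 other neuroendocrine and proneural transcription factors, 14 were highest in control 3. Among them were Neurog1, Neurog2 and Neurog3, with 4 reads each. The share of all genes highest in control 3 was not counted. Myt1, a zinc-finger factor of neural and endocrine precursors, had 61, 6 and 4280 reads in controls 1, 2 and 3 and none in the knockouts, at least 1596-fold higher in the controls pooled and at least 37.0-fold without control 3. Myt1l, its relative, had 74, 3 and 1807 reads in the controls and 1, 0 and 1 in the knockouts. St18, the third of that family, had 67, 82 and 6253 reads in the controls and 0, 3 and 1 in the knockouts. As with Insm1, every control of Myt1, Myt1l and St18 was above every knockout. St18 had a log2 fold change of -10.64 ± 2.70 (SE; edgeR adjusted p 0.0730), and passed without control 3, at -5.81 ± 0.84 with an adjusted p of 0.0183. Of the 8 tested members edgeR called 0, and 1 had an unadjusted p under 0.05, against 30.7% of all genes. Voom and DESeq2 called 0 of the 8. The median was -1.08, or -0.05 without control 3. DESeq2 was fitted to all 19, but it can withhold an adjusted p, as it did for Insm1. It called 4 that edgeR's filter had left out (Myt1l, Scrt1, Scrt2 and Pou3f2), all lower, where it called 19% of all genes. Without control 3 edgeR called 2 of 8, St18 lower and Nkx2-2 higher, against 8.8% of all genes lower and 8.4% higher. Nkx2-2, a homeobox factor of endocrine and gut lineages, had 1, 0 and 41 reads in the controls and 38, 35 and 327 in the knockouts.

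Transcripts of the partners of proneural factors, and of the ID proteins that sequester those partners, were present in all libraries. Tcf4, one of the E-protein partners, stood at 84.7, 239 and 407 CPM in the 3 controls and at 50.03, 42.9 and 36.9 CPM in knockouts 1 to 3. Its groups did not overlap, and the log2 fold change of -2.49 ± 0.57 (SE) had an adjusted p of 0.0616 by edgeR. Tcf4 passed without control 1 and without control 3, with edgeR adjusted p of 0.0355 and 0.0422. Id4 stood at 69.4, 4.51 and 228 CPM in the controls and at 1.63 to 2.47 CPM in the knockouts, whereas Id3 was high in controls 1 and 2, at 301 and 279 CPM, and 57.3 to 88.7 CPM elsewhere. Of the 7 members all were tested and all had a negative log2 fold change, where 53.9% of all genes did. The median was -0.63, beside -0.08 over all genes. The changes of Tcf3, Id1 and Id2 were smaller than their SE. None passed edgeR's threshold, and 4 had an unadjusted p under 0.05, against 30.7% of all genes. Voom called 0 and DESeq2 2, where DESeq2 called 19% of all genes. Id3 passed without control 3 (log2 fold change -1.91, edgeR adjusted p 0.00859) and Id4 without control 2 (-6.12, 0.0403). Over all genes, edgeR called 8.8% lower in the knockout without control 3. It called 377 of 18805 lower without control 1 and 122 of 19006 lower without control 2.

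REST acts with the corepressor RCOR1 and the demethylase KDM1A, and its transcript is spliced into a truncated form by SRRM3 and SRRM4, proteins of neural cells. Srrm3 had 43, 1 and 1636 reads in controls 1, 2 and 3 and 2, 0 and 2 in the knockouts. Srrm4 had 115, 10 and 1265 reads in the controls and 15, 7 and 50 in the knockouts, so it too was highest where Rest was lowest. Of 18 cofactors and antagonists 17 were tested, and 0 passed edgeR's threshold. Unadjusted p-values were under 0.05 for 4, against 30.7% of all genes. Limma voom called 0 and DESeq2 3, where DESeq2 called 19% of all genes. The median was -0.25, beside -0.08 over all genes. Rcor2, at 11.0, 63.8 and 62.0 CPM in controls and 5.59 to 8.26 CPM in knockouts, had an adjusted p of 0.0750 by edgeR and passed without control 1, at 0.0274. Rcor1 came to -0.56 ± 0.18 (log2 fold change ± SE), and passed without control 3, at -0.65 with an adjusted p of 0.0405. Over all genes, edgeR called 8.8% lower in the knockout without control 3, and 377 of 18805 lower without control 1.

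Of 23 genes known to carry REST sites, 20 were highest in control 3, and 16 had 80% or more of their summed CPM there. Among all genes that were tested or had at least 100 reads, 4.04% had such a share. Stmn3, a microtubule regulator of neurons, stood at 7.26, 0.595 and 200 CPM in the controls, and 3 reads in all came from the knockouts. Celsr3, an axon tract cadherin, stood at 9.49, 0.793 and 279 CPM in the controls and at most 0.352 CPM in a knockout. Both were lower in control 2 than in control 1, where Rest stood at 59.5 and 69.1 CPM. Vgf and Tubb3 went the other way, at 1.98 and 11.6 CPM in control 1 and 5.20 and 21.5 CPM in control 2. A link of these levels to Rest was not tested. Of 15 tested genes edgeR called 0 (11 had an unadjusted p under 0.05, against 30.7% of all genes) and voom 0. DESeq2 called 7 of the 15, and Gria2 and Scg2 among the 8 others, where it called 19% of all genes. Of the 15 log2 fold changes 14 were negative, with a median of -5.32 and of -3.03 without control 3. Over all genes tested 53.9% were negative. Without control 3 edgeR called 2 of 15, where it called 17.2% of all genes, Stmn3 lower and the sodium channel gene Scn2a higher, the latter with 31, 7 and 506 reads in the controls and 131, 166 and 171 in the knockouts. The neuroendocrine granule and surface genes, of which Chga, Chgb, Scg2 and Syp are also on the list of REST sites, were highest in control 3 in 15 of 15. Of these, 12 had 80% or more of their summed CPM there, against the same 4.04%. The list includes all 7 neuroendocrine markers by which control 3 was described above, so these counts partly repeat that result. Chga, Chgb and Syp bring the same overlap to the list of REST sites. Pcsk1, a prohormone convertase gene, had 73, 16 and 19642 reads in the controls and 0, 4 and 3 in the knockouts. Of the 8 tested members of that list edgeR called 0, and 4 had an unadjusted p under 0.05, against 30.7% of all genes. Voom called 0 of the 8 and DESeq2 1, Syp. DESeq2 also called Scg2 among the 7 others. The median of the 8 was -4.47, or -0.62 without control 3.

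**Figure D4:**
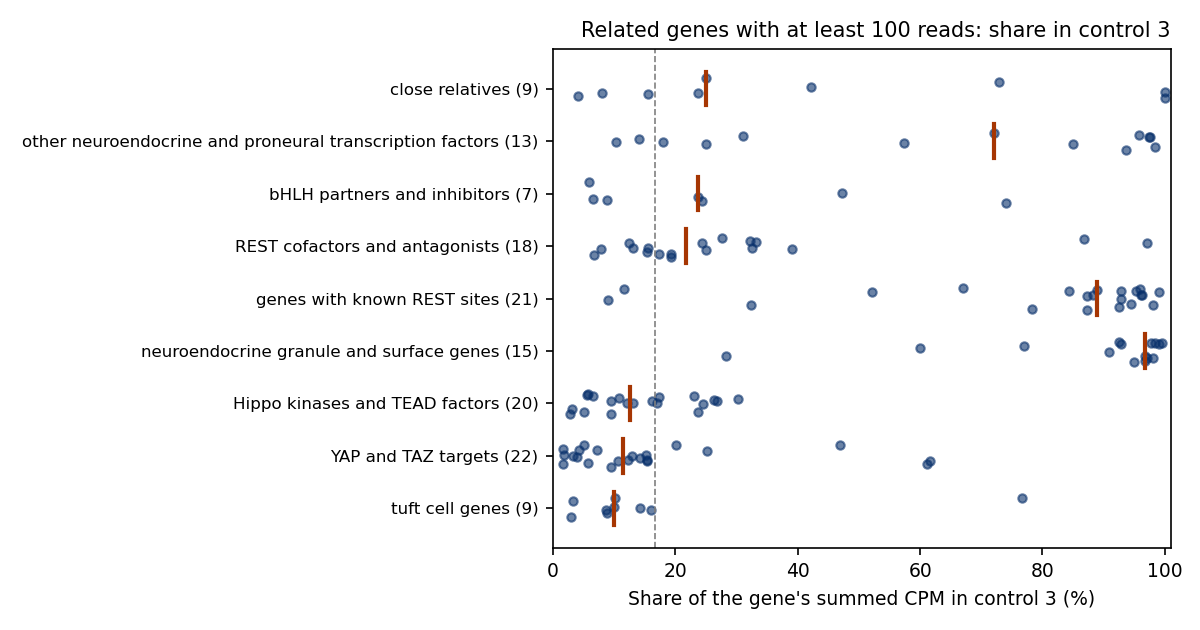
Share of each gene's summed CPM that lies in control 3 (points, percent) for related genes with at least 100 reads, by list (number of genes in brackets, median as a red bar, even share of 16.7% as a dashed line). Medians were 96.7% for neuroendocrine granule and surface genes and 88.9% for genes with REST sites, against 12.6% for Hippo kinases and TEAD factors and 11.5% for YAP and TAZ targets.

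Targets of YAP1 and TAZ did not all follow their coactivators. Control 3 was the lowest library in 11 of 22 targets, but the share of all genes lowest there was not counted. Ajuba, a scaffold gene, stood at 131, 106 and 7.72 CPM in the 3 controls and at 84.0, 66.8 and 86.7 CPM in knockouts 1 to 3, so it was low in the library that was low in Yap1. Rbms3, an RNA-binding protein gene, stood at 40.1, 26.4 and 77.6 CPM in the controls and 6.71, 8.61 and 6.15 CPM in the knockouts. Rbms3 was the 1 of 22 targets called by edgeR, where 4.31% of all genes were called. It fell by 2.75 on the log2 scale (SE 0.46), with an adjusted p of 0.0403. That call ended by limma voom (adjusted p of 0.0517), without control 1 (0.0544) and without knockout 1, 2 or 3 (0.163, 0.220 and 0.215). The median of the 22 tested targets was -0.19, beside -0.08 over all genes, and without control 3 it was -0.30 beside -0.02. In 7 of 22 the knockouts lay below every control, against 19.1% of all genes. Unadjusted p-values were below 0.05 for 6 of 22, against 30.7% of all genes. DESeq2 called 5, where it called 19% of all genes, and limma voom 0. Without control 3 edgeR called 6 of 22, all lower in the knockout, against 8.8% of all genes (Ccn2, Axl, Crim1, Foxf2, Myof and Rbms3).

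Among the Hippo kinases, adaptors and TEAD factors, 0 of 20 tested passed edgeR's threshold. Unadjusted p-values were under 0.05 for 6, against 30.7% of all genes. Limma voom called 1 and DESeq2 6, all lower, where 19% of all genes passed by DESeq2. The median was -0.62. The kinase genes Taok1 and Map4k4, the adaptor Sav1 and the TEAD antagonist Vgll4 came nearest, with adjusted p between 0.0553 and 0.0592 by edgeR. Their knockouts lay below every control, for instance 35.9, 33.7 and 36.1 CPM of Vgll4 against 87.9, 72.4 and 54.2 CPM. Over the 20, groups did not overlap in 9, against 40.7% of all genes. The knockouts were below in 7, against 19.1% of all genes, and above in 2 (Wwc1 and Amotl2). Without control 3 edgeR called 6 of 20 lower, against 8.8% of all genes, namely Sav1, Lats1, Mob1b, Vgll4, Taok1 and Map4k4. Vgll1, a TEAD partner, had no reads in the controls and 5, 56 and 10 in the knockouts, and was called higher by DESeq2.

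Tuft cell genes ranged from near 0 to well expressed. The taste channel gene Trpm5 had at most 13 reads in a library, and the tuft factor Gfi1b at most 6. Avil, an actin-binding protein gene of tuft cells, stood at 28.4, 27.2 and 10.01 CPM in controls 1, 2 and 3 and 1.49, 1.19 and 1.85 CPM in knockouts 1 to 3, and fell by 3.85 on the log2 scale (SE 0.53; edgeR adjusted p 0.0326). The call ended without control 2 (adjusted p of 0.0607) and without knockout 1, 2 or 3 (0.143, 0.217 and 0.198). Dclk1 had 268, 294 and 2113 reads in the controls and 48, 26 and 13 in the knockouts, with an adjusted p of 0.0594 by edgeR. Avil was the 1 called by edgeR of 10 tested tuft genes, where 4.31% of all genes were called. Limma voom called 1 and DESeq2 2, where DESeq2 called 19% of all genes. The median of the tuft genes was -0.52, or -0.84 without control 3 and -0.16 without control 2. Without control 3 edgeR called 2 of 11, Avil and Dclk1 (adjusted p of 0.00687 and 0.0247), against 8.8% of all genes lower.

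Levels of other cells' markers differed between the same libraries. Summed epithelial markers (Epcam, Cdh1, Krt8 and Krt18) were 2159, 3015 and 629 CPM in controls 1, 2 and 3 and 4022 to 4823 CPM in the knockouts, so control 3, low in Yap1, Wwtr1 and Rest, was also low in these. Myeloid markers summed to 211 CPM in control 3 and 526 to 1124 CPM elsewhere, and alveolar markers to 140 CPM against 724 to 4077 CPM. Blood endothelial markers ran from 164 to 479 CPM and fibroblast markers of control 3 (5042 CPM) lay above those of control 1 and the knockouts. The part of these cells in the levels of Yap1, Wwtr1, Rest and Nfib was not tested.

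The authors' deposited table of their DESeq2 comparison, as used here, gives 5 of the 9 factors. In the authors' deposited table the log2 fold changes are 0.54 for Yap1, 0.03 for Wwtr1, -0.06 for Rest, -1.49 for Nfib and -2.13 for Pou2f3. The adjusted p in the authors' deposited table are 0.670, 0.981, 0.969, 0.133 and 0.421 in the same order.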

How the data were processed

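Messenger RNA of 6 tumour samples was sequenced, and the authors deposited whole-number read counts per Ensembl gene without normalization. STAR and the mm39 build are named in the submitters' processing notes, and the counting tool, annotation release and strand setting are not given in the sources used. The authors' deposited DESeq2 table holds log2 fold changes, a mean scaled-count signal, a Wald score and p-values. Gene symbols came from a table of gene names, exon lengths (union of exons) from GENCODE mouse release 21 and promoters from RefSeq (GRCm38.p6), which listed 5 of the 9 factors.

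Counts were filtered with filterByExpr, scaled by TMM and tested with edgeR 4.0.16 (R 4.3.3, quasi-likelihood, robust, two-sided, genotype only, Benjamini-Hochberg, threshold 0.05). The SE is the absolute log2 fold change divided by the square root of the F statistic. CPM uses TMM-adjusted totals over the genes kept. Alternatives tried were DESeq2 1.42.0, limma voom (limma 3.58.1), scaling by RLE or upper quartile, the sample number as a block, each library left out, keeping all genes, and keeping those with 1 CPM in at least 3 samples. The edgeR step was tested on simulated data. Factors and lists were chosen with earlier results of these data known. Genes named are the 9 factors, the 3 nearest in share profile, and up to 4 per list by smallest p. Results for some genes that this rule names are not reported here. Others were named after their values were seen, among them Neurod4, Neurod6, Insm2, Myt1, Myt1l, Srrm3, Ajuba, Scn2a, Vgll1, Trpm5 and Gfi1b. The lists held 2 tuft cell genes, Pou2af2 and Pou2af3, that are not analysed here.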

Additional observations from a re-analysis of the deposited data

How the results depend on the processing

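The 771 genes called by edgeR over the whole table became 465 without the filter, 4142 by DESeq2 and 0 with the replicate block, where 4026 had an unadjusted p below 0.05, and ranged from 0 to 3209 when 1 library was left out (269 without control 2 and 2, 0 and 0 without knockouts 1, 2 and 3, where 3758, 3372 and 3321 had an unadjusted p below 0.05). Deviations from the group means had correlations of 0.021, 0.019 and 0.088 between same-numbered samples, and -0.105 to 0.076 between the others. With 3 samples per group, these values cannot exclude a shared batch or pairing. The block called 0 of the 6 tested factors (1 at an unadjusted p below 0.05). The number of factors called ranged from 0 to 2 over the left-out libraries, 2 without control 3 (Insm1 and Prox1), and was 0 in the other 12 alternatives. Of 76 refitted fold changes of the factors 69 kept direction and side of the threshold. With 1 library left out Wwtr1 ranged from -0.40 to 0.44 and Rest from -0.52 to 0.37. Wwtr1 turned to -0.40 without control 3, and Rest turned to 0.35 by limma voom, 0.30 with the replicate block, 0.37 without control 1 and 0.19 without control 2. The cause was not tested. The calls of Rbms3 and Avil ended with the block (adjusted p of 0.138 and 0.131). DESeq2 gave no p for Insm1, Prox1 and Neurod1. All 36 group means under other scalings stayed within 1 SD. Sampling depth limits statements on Pou2f3 and Atoh1, and on Neurod1 and Insm1 in the knockouts.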
